A study of Mus musculus with 16 samples.

Results

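Protein kinase C (PKC) isoforms were followed in liver and kidney of mice kept under a regular or a continually shifted light–dark cycle. The genes were the rows of the liver and kidney tables with the symbols Prkca, Prkcb, Prkcd, Prkce, Prkch, Prkci, Prkcq and Prkcz, 8 of the 32989 genes in the tables. Each symbol occurred on 1 row. The family was chosen by a readout of these same libraries: Prkca was higher in the livers of mice under the shifted cycle and did not show the same difference in the kidneys. The liver, kidney and between-organ values of Prkca under this contrast are therefore a description and carry no test.

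The mice were male C57BL/6J. LD-conditioned mice had light from 8:00 to 20:00, and ADV-conditioned mice had their light–dark cycle advanced by 8 hours every 4 days. Both conditions lasted 85 weeks, to an age of 97 weeks, with no genetic change in either group. Poly(A) RNA of liver and kidney of 4 LD mice (L63, L65, L86, L104) and 4 ADV mice (A75, A91, A94, A115) was sequenced, which gave 16 libraries of 8 mice. Samples were taken at a single window of the day, counted from the last light-on, so a shift in the phase of a rhythm and a change in its mean level cannot be told apart.

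PKC isoforms are serine and threonine kinases that respond to lipid second messengers. When a receptor activates phospholipase C, diacylglycerol (DAG) appears in the membrane and calcium rises in the cytosol. The conventional isoforms, here Prkca and Prkcb, need both signals. The calcium-independent isoforms Prkcd, Prkce, Prkch and Prkcq respond to DAG alone, and the atypical isoforms Prkci and Prkcz respond to neither and act in polarity complexes with Par6. In liver, calcium-independent isoforms activated by DAG are known for inhibiting insulin signalling, and in kidney PKC isoforms act on ion transport and on vascular and glomerular cells.

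The DNA just before the start sites of 3 members is shown because Prkca and Prkcb are the members whose liver values did not overlap between the conditions, and because Prkcd is the member with a perfect E-box, the hexamer bound by BMAL1 and CLOCK. Each is the 250 bases before the start of the gene model used in the tables, taken from RefSeq (GRCm38.p6, the build mm10 of the tables) and written 5′ to 3′ on the strand of the gene. Capitals mark matches on either strand to the E-box CACGTG, the phorbol ester response element TGACTCA, the GC box GGGCGG or the TATA box TATAAA. Prkca lies at chr11:108343889-108344138 on the minus strand, Prkcb at chr7:122288875-122289124 on the plus strand and Prkcd at chr14:30626209-30626458 on the minus strand.
Prkca: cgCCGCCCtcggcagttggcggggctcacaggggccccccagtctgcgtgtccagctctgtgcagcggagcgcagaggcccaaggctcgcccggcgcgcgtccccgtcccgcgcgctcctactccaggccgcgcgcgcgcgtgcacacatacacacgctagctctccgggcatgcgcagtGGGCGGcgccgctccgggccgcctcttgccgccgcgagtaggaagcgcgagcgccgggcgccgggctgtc
Prkcb: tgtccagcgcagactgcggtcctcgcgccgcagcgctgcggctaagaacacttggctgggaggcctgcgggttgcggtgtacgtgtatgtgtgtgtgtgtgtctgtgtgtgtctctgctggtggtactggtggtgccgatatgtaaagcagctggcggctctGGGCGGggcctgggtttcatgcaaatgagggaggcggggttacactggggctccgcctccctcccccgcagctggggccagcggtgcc
Prkcd: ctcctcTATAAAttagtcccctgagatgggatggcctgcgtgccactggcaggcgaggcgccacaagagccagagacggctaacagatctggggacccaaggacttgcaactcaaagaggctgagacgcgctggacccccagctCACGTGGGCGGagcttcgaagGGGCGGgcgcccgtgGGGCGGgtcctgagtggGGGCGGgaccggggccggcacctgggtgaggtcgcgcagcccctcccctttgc

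RefSeq windows were at hand for 6 of the 8 members, the others being Prkce and Prkch. The windows of Prkca, Prkcb and Prkcd held 76.8%, 65.2% and 67.6% G and C, against a median of 52.4% over all 32851 windows of this length. Prkcd had an E-box 106 bases before its start, which overlaps the nearest of its 4 GC boxes, and 6.02% of all windows hold an E-box. All 6 windows held at least 1 GC box, a match found in 32.7% of all windows. The phorbol ester response element was in none of the 6 and in 4.46% of all windows, and the TATA box was in Prkcd alone of the 6 and in 12.4% of all windows. These matches are letters in a window and not sites shown to be bound.

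Between 21092501 and 24285055 fragments per liver library and between 15688495 and 18043306 per kidney library fell on the annotated genes. Hepatocyte markers were lower in kidney (median log2 difference −10.46) and proximal tubule markers higher (9.82), which checks the organ labels. A94 and the kidney of A115 stood apart from the other libraries. A94 had a mean correlation of 0.941 with the other livers, where the rest had 0.976 or more, and its summed B cell markers were 82.5 FPKM in liver and 84.8 in kidney, against at most 8.68 in every other library. The A115 kidney had a mean correlation of 0.858 with the other kidneys, 33.8% of its fragments on mitochondrial genes against 9.43% to 18.0% in the others, and summed proximal tubule markers of 1014 FPKM against 3397 or more. Isoform results that rest on them are therefore given with and without them. The labels name 2 sequencing providers without assigning libraries to them. A batch of this kind therefore cannot be told apart from the conditions or from the organs.

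The levels of the isoforms differed widely within each organ. FPKM counts fragments per kilobase of exon, scaled to the library total, and is corrected for length, so levels can be set beside each other between genes. In the livers of LD mice Prkci was highest with 4.03 ± 0.496 FPKM (SD, n = 4), followed by Prkcd with 2.52 ± 0.764 and Prkcz with 2.51 ± 0.172. Prkce, Prkch, Prkca, Prkcq and Prkcb followed with means of 1.80, 1.005, 0.597, 0.444 and 0.364 FPKM. Of the neighbours in this order, the ranges overlapped for Prkci and Prkcd, for Prkcd and Prkcz and for Prkcq and Prkcb, and were apart for the other pairs. In ADV livers the order was Prkcd, Prkci, Prkcz, Prkce, Prkca, Prkch, Prkcb and Prkcq, and only the ranges of Prkci and Prkcz were apart. Prkca thus stood in place 6 in LD livers and in place 5 in ADV livers, next to Prkch in both.

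In the kidneys of LD mice the order was Prkcd, Prkcz, Prkci, Prkce, Prkch, Prkca, Prkcq and Prkcb, from 19.5 ± 2.45 down to 0.502 ± 0.0931 FPKM (SD, n = 4). The ranges overlapped for Prkch and Prkca and for Prkca and Prkcq, and were apart between all other neighbours. Summed over the 8 genes, kidney held 57.8 ± 8.88 FPKM and liver 15.3 ± 4.18 (SD, n = 8 libraries each). Prkcd and Prkcz made up 34.9% and 26.2% of the sum in kidney, whereas Prkci made up 27.0% and Prkcd 20.6% in liver.

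**Figure D1:**
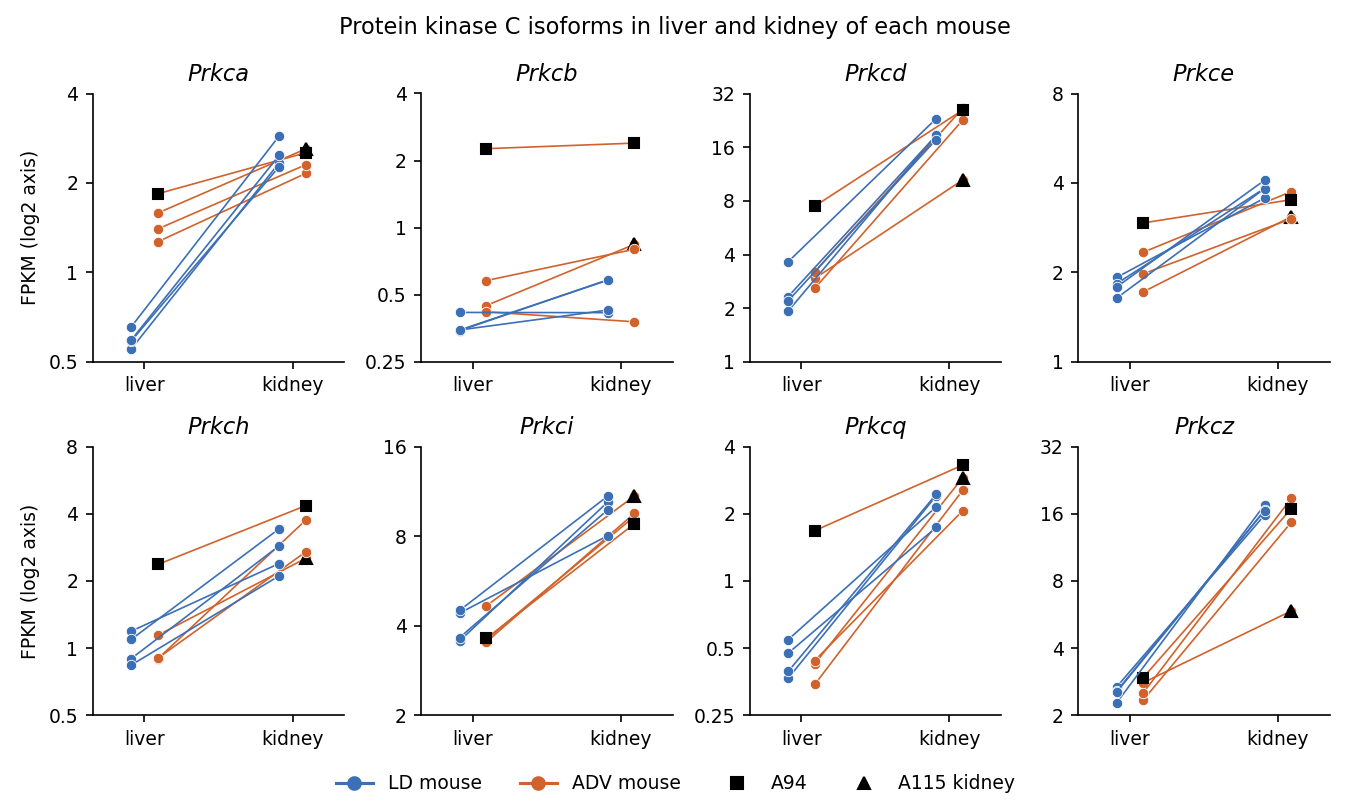
FPKM of each isoform (log2 axis) in liver and kidney, with a line for each mouse, blue for LD and orange for ADV; black squares mark A94 and black triangles the A115 kidney. Prkca liver values of ADV mice (1.27 to 1.84) lie above those of LD mice (0.552 to 0.656) while the kidney values overlap, and every isoform but Prkcb is higher in the kidney of each mouse.

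Kidney against liver was not used to choose the genes and was tested for all 8 isoforms over the 16 libraries, with limma on log2(FPKM + 0.1), a scale that understates the change of low genes. At a Benjamini-Hochberg adjusted p under 0.05, 7 of 8 isoforms were higher in kidney and none was lower. Of all 14379 genes tested, 61.5% were called higher in kidney and 13.1% lower, so most genes moved this way. Each library was divided only by its own total, and the median gene was 0.74 higher in kidney on the log2 scale. When libraries were scaled by the median ratio of their genes, which brought this median to 0.008, 6 of 8 isoforms were higher in kidney, against 33.6% of all genes called higher and 31.6% called lower.

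Prkcd, a DAG-responsive isoform with known roles in cell death and immune signalling, differed most between the organs. Its liver values were 1.93, 2.20, 3.64 and 2.32 FPKM in L63, L65, L86 and L104 and 3.21, 2.59, 7.47 and 2.94 in A75, A91, A94 and A115. Its kidney values in the same order of mice were 18.7, 17.7, 23.1 and 18.6 and then 26.4, 22.7, 25.9 and 10.5 FPKM. The lowest kidney, A115, was still above the highest liver, A94. The log2 difference was 2.68 (SE 0.24, 6.39-fold, limma adjusted p = 7e-08), and 1.92 under the median ratio.

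The atypical isoforms, which are not activated by DAG, were also higher in kidney. Prkcz, a partner of the polarity proteins of epithelia, had liver values of 2.27, 2.56, 2.54 and 2.68 FPKM in LD mice and 2.34, 2.52, 2.95 and 2.80 in ADV mice, and kidney values of 17.6, 16.6, 16.6 and 15.8 and then 14.7, 18.8, 16.9 and 5.87. The A115 kidney alone lay far below the other kidneys. The log2 difference of Prkcz was 2.46 (SE 0.19, adjusted p = 1.17e-08). Prkci, the other atypical isoform, had kidney values of 8.03 to 10.9 and liver values of 3.52 to 4.66 FPKM, which did not overlap, with a log2 difference of 1.28 (SE 0.10, adjusted p = 1.68e-08). Under the median ratio the differences of Prkcz and Prkci were 1.70 and 0.52 (adjusted p = 9.28e-09 and 0.00558).

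Of the other calcium-independent isoforms, Prkcq, best known from T cell receptor signalling, was higher in kidney by 2.04 on the log2 scale (SE 0.24, adjusted p = 1.92e-06). Its lowest kidney value, 1.74 FPKM, was above its highest liver value, 1.68 in A94, the liver with the most T cell markers, and every other liver lay at 0.545 or less. Prkch, which acts in epithelial and lymphoid cells, was higher in kidney by 1.34 (SE 0.20, adjusted p = 1.99e-05). Under the median ratio Prkcq and Prkch differed by 1.348 and 0.61 (adjusted p = 7.28e-05 and 0.00296). Prkce, the isoform most linked to hepatic insulin resistance, was higher by 0.81 (SE 0.11, adjusted p = 8.48e-06) in FPKM as deposited, but under the median ratio its difference was 0.07 with an interval of −0.19 to 0.33 (adjusted p = 0.646).

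The conventional isoforms differed from each other. Prkca was higher in kidney by 1.26 (SE 0.11, adjusted p = 3.13e-08), and by 0.54 under the median ratio (adjusted p = 0.00222). Prkcb, the isoform of B cell receptor signalling, was not called. Its difference was 0.33 with an interval of −0.40 to 1.05 (adjusted p = 0.396), and −0.32 under the median ratio. In whole organs, fewer cells of a type and less RNA per cell cannot be told apart, here and in all that follows.

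**Figure D2:**
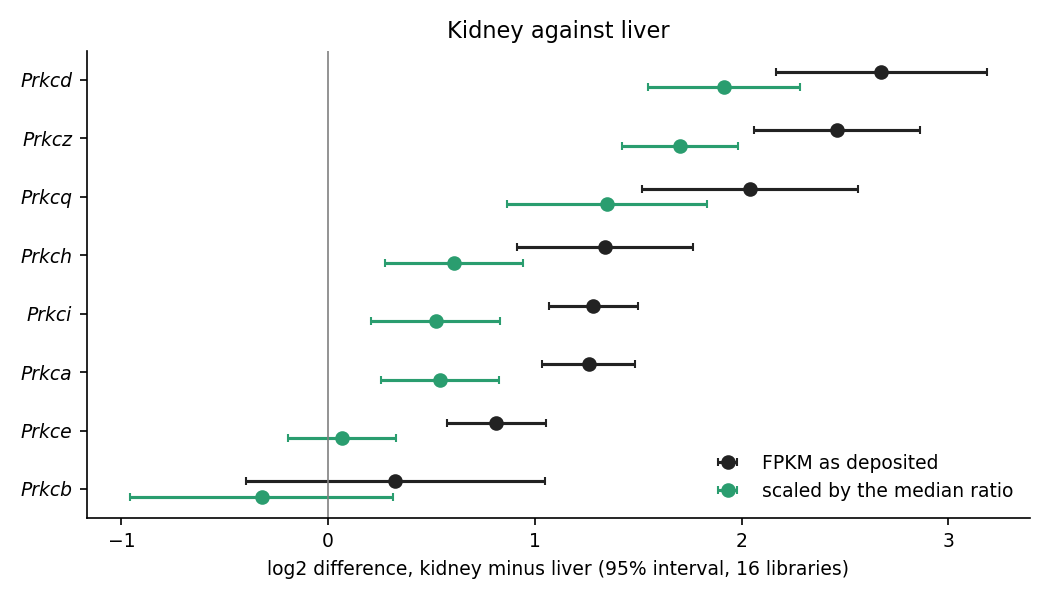
Log2 difference of each isoform between kidney and liver over 16 libraries with 95% intervals, in FPKM as deposited (black) and after scaling by the median ratio (green). Scaling lowers every difference; Prkce drops from 0.81 to 0.07, and Prkcb crosses 0 in both.

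The question of the study was what long-term circadian misalignment does to peripheral organs, and in liver Prkca was the isoform with the widest gap between the conditions. In LD livers Prkca was 0.656, 0.588, 0.592 and 0.552 FPKM in L63, L65, L86 and L104, and in ADV livers 1.27, 1.40, 1.84 and 1.58 in A75, A91, A94 and A115. Every ADV liver was above every LD liver by a wide margin. The means were 0.597 ± 0.0430 and 1.52 ± 0.248 FPKM (SD, n = 4 each), from 113 to 134 and 248 to 349.5 fragments. The log2 difference was 1.21, a 2.31-fold change on the log2(FPKM + 0.1) scale, and 1.12 without A94. These values chose the gene and are not tested.

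With this difference Prkca took 9.06% ± 1.27 of the summed FPKM of the 8 isoforms in ADV livers and 4.56% ± 0.759 in LD livers (SD, n = 4). The highest ADV liver, at 1.84 FPKM, was still below the lowest kidney of either condition, at 2.15. In the tables the Prkca gene model runs from 107933387 to 108343888 on the minus strand of chr11 with 8352 exonic bases. An annotated transcript of Apoh, a secreted hepatocyte protein on the opposite strand, shares 30 exonic bases with Prkca in GENCODE vM21, although the gene models in the tables do not meet. Apoh was 1625 to 1915 FPKM in LD livers and 1690 to 2004 in ADV livers, which overlapped. The part of Apoh in the Prkca values was not tested.

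The summed markers of smooth muscle and stellate cells and of adipocytes were higher in all 4 ADV livers than in any LD liver, and macrophage markers were on average above the LD mean in all 4. The summed markers of smooth muscle and stellate cells, 13 genes of which Dcn was the highest, were 127 to 144 FPKM in LD livers and 245, 173, 392 and 214 in A75, A91, A94 and A115. In A91 the sum was mostly Dcn (147 FPKM, against 103.6 to 119.5 in LD livers), and the mean log2 difference of the 13 genes from the LD livers was 0.075 there, within the LD range, while that of Prkca was 1.11. In A75, A94 and A115 the mean was 1.54, 2.32 and 0.99. The difference between the group means was positive for 13 of 13 genes, 8 of them at an unadjusted p under 0.05 and 0 at an adjusted p under 0.05. Among them Cnn1 was 0.020 to 0.077 FPKM in LD livers and 2.28 in A75. It passed the filter on low values through the ADV livers, so its positive sign carries no weight. Of all genes tested in liver, 8.65% were higher and 3.13% lower at an unadjusted p under 0.05, and 6.19% and 7.29% under the median ratio. The summed macrophage markers, 15 genes led by Lyz2, were 248 to 357 FPKM in LD and 353 to 1127 in ADV livers, which overlapped. Of these genes 15 of 15 were higher, 8 at an unadjusted p under 0.05. This count was 11 without A94, where 1105 of all 12553 genes were higher at that p. The overlap of this sum was between A91 (353 FPKM) and L86 (357). For 8 of the 15 genes every ADV liver was above every LD liver, and for 7 under the median ratio, where this held for 6.94% and 4.45% of all genes. It held for 2 of the 13 smooth muscle and stellate genes under both. The summed adipocyte markers, 6 genes led by Fabp4, did not overlap at 15.9 to 24.2 FPKM in LD and 26.2 to 70.1 in ADV livers. In A91 this sum was mostly Cidec (18.1 FPKM), which was 3.22 to 5.46 in the other ADV livers and 3.73 to 14.03 in LD livers, while Fabp4 was 10.6 there and within the LD range of 9.16 to 12.4. The summed hepatocyte markers, led by Alb, overlapped at 62596 to 75757 and 62513 to 72820. None of these lists had a defining gene at 0 in all livers. Their part in the Prkca values was not tested. Several immune marker genes passed the filter on low values through A94 alone, so no count is read from the 10 T cell, 9 B cell and 7 neutrophil genes tested with all mice. Without A94, 4 of 4 T cell, 6 of 6 B cell, 2 of 4 neutrophil and 1 of 4 red blood cell genes tested were higher in ADV livers, the last being 3 of 4 with A94. With and without A94, 7 of 12 endothelial, 4 of 5 cholangiocyte, 2 of 4 podocyte, 1 of 2 adipocyte and 1 of 2 proximal tubule genes were higher, and 0 genes of any marker list were called. The mean log2 difference of the cholangiocyte markers from the LD livers was 1.41, −0.18, 1.04 and 0.82 in A75, A91, A94 and A115.

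None of the other 7 isoforms passed the test in liver. At an adjusted p under 0.05, limma called 0 of 7, and 0 of 7 had an unadjusted p under 0.05. Over all 12835 genes tested in liver, 0.00779% were called, which is 1 gene. None of these 7 was called under any of the 17 alternatives either, limma-voom on the recovered fragments among them. Of these 7, the liver values of ADV mice all lay above those of LD mice for Prkcb alone, while this held for 6.94% of all genes, and for 4.45% under the median ratio, where Prkcb was still without overlap. The median ratio turned the balance of all genes without overlap from 891 higher and 243 lower to 571 higher and 610 lower.

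Prkcb, the other conventional isoform, was 0.348, 0.345, 0.347 and 0.417 FPKM in the LD livers in the order given above, and 0.579, 0.420, 2.26 and 0.448 in the ADV livers. A91 was only just above L104, and A94 was far above all others. The log2 difference was 0.83 (SE 0.44, interval −0.17 to 1.82, adjusted p = 0.469), and an exact two-sided permutation test of the 4 against 4 mice gave p = 0.0286 unadjusted, the smallest p this design allows. The same exact permutation test gave 0.171 or more for each of the other 6 isoforms. Without A94 the difference was 0.32 (interval −0.06 to 0.70, adjusted p = 0.417).

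Among the calcium-independent isoforms A94 was again the high library. Prkcq was 0.366, 0.474, 0.393 and 0.545 FPKM in LD livers and 0.344, 0.440, 1.68 and 0.425 in ADV livers, and Prkch was 0.897, 0.839, 1.09 and 1.19 and then 0.895, 0.900, 2.37 and 1.14. Outside A94 the values of both genes overlapped between the conditions. Their log2 differences of 0.35 and 0.27 became −0.11 and −0.03 without A94. Prkcd differed by 0.57 (SE 0.33, adjusted p = 0.489), and by 0.23 without A94.

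Prkce was 1.83, 1.64, 1.79 and 1.92 FPKM in LD livers and 1.98, 2.34, 2.94 and 1.72 in ADV livers. A115 was the one ADV liver within the LD range. A transcript of unknown type on the same strand, AC154542.1, shares 6.50% of the exonic bases of Prkce in GENCODE vM21 and is no row of the tables. The log2 difference of Prkce was 0.28 (SE 0.17, interval −0.11 to 0.67, adjusted p = 0.504), 0.15 without A94 and 0.39 without A115 (adjusted p = 0.651 and 0.471). The atypical isoforms had the narrowest intervals near 0, with −0.06 (−0.38 to 0.25) for Prkci and 0.07 (−0.21 to 0.35) for Prkcz.

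**Figure D3:**
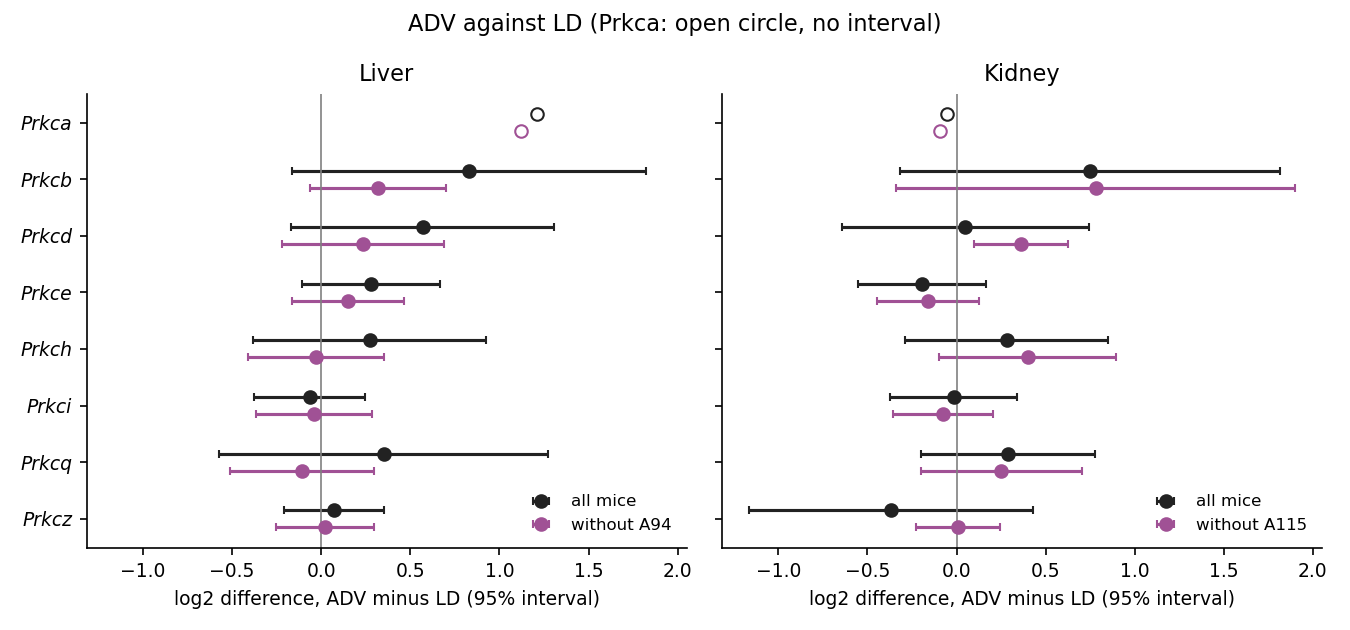
Log2 difference between ADV and LD mice of each isoform with 95% intervals in liver (left; all mice in black, without A94 in purple) and kidney (right; all mice in black, without A115 in purple). Prkca, whose values chose the family, is drawn without an interval at 1.21 in liver and −0.05 in kidney, and Prkcd in kidney without A115 has the only interval drawn that leaves out 0.

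The mouse A94 held the highest of the 8 liver values for 7 isoforms, all but Prkci. Against the LD mean of liver it was higher by 2.35 for Prkcb, 1.72 for Prkcq, 1.57 for Prkcd and 1.17 for Prkch on the log2 scale. In its kidney Prkcb was higher by 2.07, while Prkcd, Prkch and Prkcq were higher by 0.41, 0.69 and 0.59. Markers of T cells in A94 were on average 2.32 higher in liver and 2.55 in kidney, those of B cells 3.90 and 3.67, those of macrophages 1.78 and 1.98, those of neutrophils 3.16 and 1.51 and those of smooth muscle and stellate cells 2.32 and 1.21. T cells, B cells and macrophages are known to express Prkcq, Prkcb and Prkcd, respectively, and the part of these markers in the isoform values was not tested. In the other ADV livers Prkcb was higher than the LD mean by 0.165 to 0.55 on the log2 scale.

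**Figure D4:**
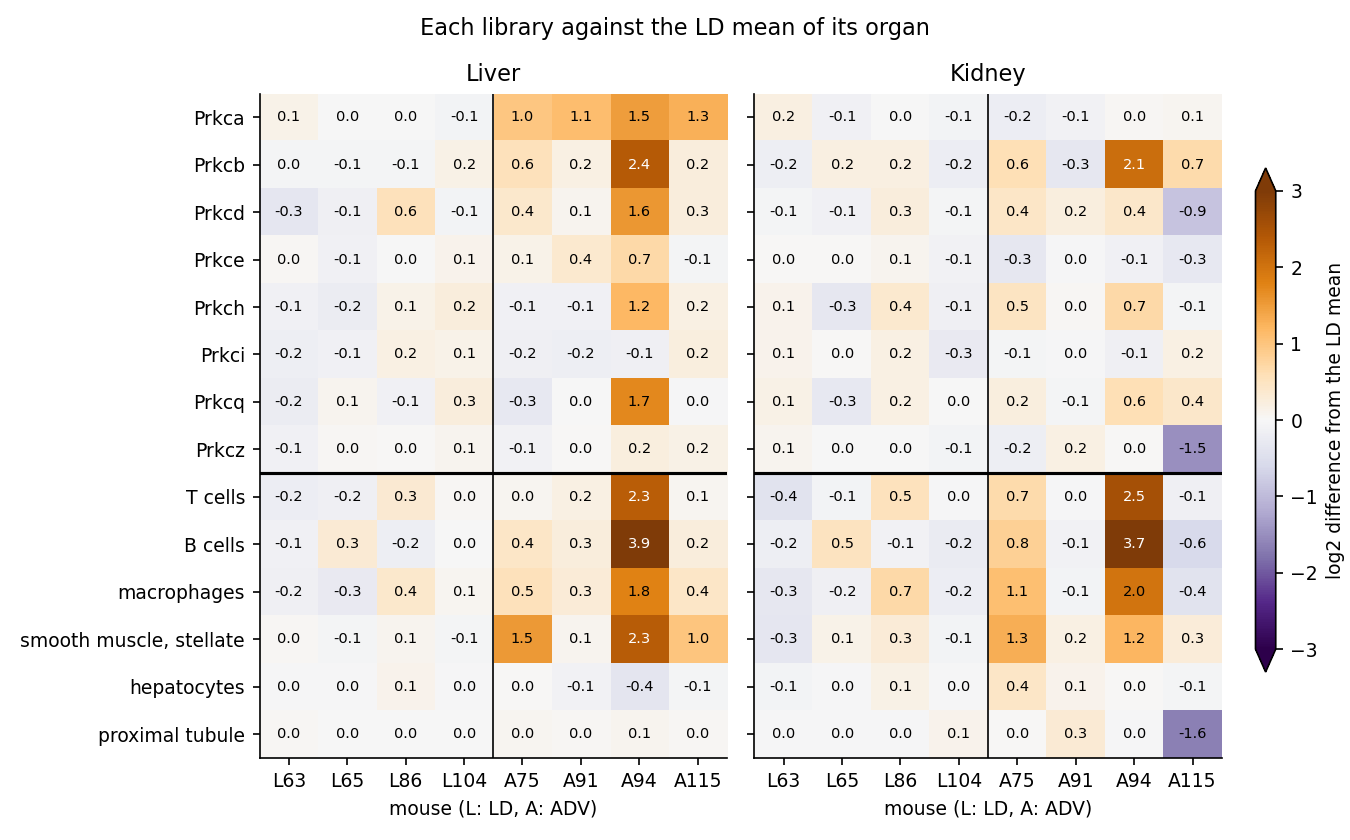
Log2 difference of each library from the LD mean of its organ for the 8 isoforms (above the line) and for the mean of 6 marker lists (below it), liver left and kidney right; colours end at ±3. A94 carries the highest values of Prkcb and of the immune markers in both organs, Prkca is raised in all 4 ADV livers and near 0 in the ADV kidneys, and Prkcz and the proximal tubule markers are both low in the A115 kidney.

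In kidney Prkca did not follow the liver. It was 2.88, 2.27, 2.48 and 2.34 FPKM in LD kidneys and 2.15, 2.30, 2.53 and 2.60 in ADV kidneys. The 2 groups overlapped over most of their range, with a log2 difference of −0.05, or −0.28 without A115 under the median ratio. The ADV effect in kidney was lower than that in liver by 1.26 on the log2 scale. These values, too, served the choice of the gene and carry no test.

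None of the other 7 isoforms passed the test in kidney, with 0 of 7 at an adjusted p under 0.05 and 0 of 7 at an unadjusted p under 0.05, where 0% of all 14452 genes were called. With limma-voom 0 of 7 were called as well. No isoform had LD and ADV kidneys without overlap, against 2.8% of all genes. Without A115, 18.8% of all genes were called, yet 0 of the 7 isoforms were. The nearest was Prkcd, whose log2 difference of 0.05 became 0.36 (SE 0.12, interval 0.10 to 0.62, adjusted p = 0.0597) and 0.16 (adjusted p = 0.232) when the median ratio was applied as well. Without A115 under the median ratio Prkce was the nearest, with −0.35 (interval −0.67 to −0.03, adjusted p = 0.111). Without A94, Prkcd was −0.07.

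Prkcz and Prkcd were the isoforms furthest below the LD mean in the A115 kidney, by 1.49 and 0.88 on the log2 scale, and Prkce was below it by 0.30. Prkcz was 5.87 FPKM there and 14.7 to 18.8 in the other kidneys, and Prkcd was 10.5 and 17.7 to 26.4. The log2 difference of Prkcz between the conditions was −0.37 (interval −1.16 to 0.43, adjusted p = 1) and 0.01 without this library. Markers of several cell types were low there as well, with a mean log2 difference from the LD kidneys of −1.65 for proximal tubule, −1.46 for distal nephron and collecting duct, −1.30 for red blood cells, −0.89 for podocytes and −0.65 for endothelial cells. Their part in the values was not tested. Prkci, by contrast, was 10.9 FPKM in the A115 kidney, level with L86 at the top of the 8 kidneys.

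Prkcb had kidney values of 0.427, 0.583, 0.581 and 0.416 FPKM in LD mice and 0.8003, 0.378, 2.40 and 0.842 in ADV mice. ADV kidneys held both the lowest value, A91, and the highest, A94. Its log2 difference was 0.75 (SE 0.46, adjusted p = 1), and 0.31 without A94. The values of Prkce were 3.56 to 4.09 FPKM in LD and 3.03 to 3.74 in ADV kidneys, a log2 difference of −0.19 (SE 0.16, adjusted p = 1). Prkch and Prkcq differed by 0.28 and 0.29, both with an interval across 0. Without A94 these were 0.15 and 0.19, and without A115 0.40 and 0.25.

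The difference between the ADV effects of the 2 organs was tested for the 7 isoforms other than Prkca over all 16 libraries. It passed for 0 of 7 in limma, with 0 of 7 at an unadjusted p under 0.05, and 0% of all 14379 genes were called. Prkce came nearest, with a kidney effect lower than the liver effect by 0.48 (interval −0.95 to 0.0007, adjusted p = 1). On the recovered fragments limma-voom called 0 of 7, with Prkce at an unadjusted p under 0.05. Without A115, 415 of all genes were called, and again 0 of the 7, with Prkce at −0.55 (interval −0.98 to −0.13, adjusted p = 0.126). The median ratio without A115 gave −0.64 (adjusted p = 0.0678), and without A94 the difference was −0.37 in FPKM as deposited and −0.30 under the median ratio (adjusted p = 1 in both). Its ADV values were higher than the LD mean in 3 of 4 livers and lower in 4 of 4 kidneys. For Prkcd and Prkcz the differences were −0.52 and −0.44 with intervals from −1.54 to 0.50 and from −1.24 to 0.37, so that sizeable differences in either direction remain within the error.

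The proteins that make DAG, bind PKC or are its substrates were followed, with the clock genes, in 7 lists written from general knowledge. Of the genes tested in liver, 0 passed an adjusted p under 0.05 in each list. Among 18 substrates and effectors 16 were higher in ADV livers, 5 of them at an unadjusted p under 0.05, where 8.65% of all genes were higher (6.19% under the median ratio), with a median log2 difference of 0.40 against 0.10 over all genes tested. Without A94 this median was 0.16. Without A115, 3 genes had an unadjusted p under 0.05, where 960 of all 12816 genes were higher at that p. The smooth muscle, stellate and macrophage markers were higher in the same livers, as given above, and their part in these values was not tested. The pair with the smallest p were Pld1, a phospholipase D that PKC activates, with 1.13 ± 0.143 FPKM in LD and 1.91 ± 0.330 in ADV livers (SD, n = 4, log2 difference 0.70, limma adjusted p = 0.296), and Ppp1r14a, the PKC-activated inhibitor of myosin phosphatase in smooth muscle, with a log2 difference of 1.17 (adjusted p = 0.366), or 0.74 without A94.

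Enzymes of DAG turnover, 14 of them tested in liver, gave 4 at an unadjusted p under 0.05, all lower in ADV mice, where 3.13% of all genes were. This count was 2 without A115, where 379 of all 12816 genes were lower at that p. It was 6 under the median ratio, where 7.29% of all genes were lower. Lpin2, a phosphatidate phosphatase that produces DAG, had 59.8 ± 3.67 FPKM in LD and 39.1 ± 11.3 in ADV livers (SD, n = 4, log2 difference −0.66, adjusted p = 0.322). Dgat1, which turns DAG into triglyceride, differed by −0.28 (adjusted p = 0.395). Of 12 phospholipase C and Gq genes, Plcg1 differed by −0.40 and Plcd1 by 0.89, and of 14 anchors and scaffolds Cavin3, which binds Prkcd, differed by 1.17. Plcd1 and Cavin3 passed the filter on low values with A94 and not without it, so nothing is counted from them. An unadjusted p under 0.05 held for none of 14 maturation factors, where Hsp90ab1 differed by −0.32 and Mapkap1 by 0.17 (0.07 under the median ratio), and none of 11 other DAG receptors and related kinases, where Rasgrp2 differed by 0.41 (0.24 without A94) and Unc13b by 0.42. Pard6a, the Par6 partner of the atypical isoforms, differed by 0.36.

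Of 18 clock genes in liver, 15 were lower in ADV mice, with a median of −0.42 against 0.10 over all genes. Of them, 3 had an unadjusted p under 0.05, where 3.13% of all genes were lower. The count was 5 without A94, where 710 of all 12553 genes were lower at that p. It was 6 under the median ratio, where 7.29% of all genes were lower. The ADV livers were not alike for these genes. Dbp, an output gene of the clock, was 2.40 and 1.33 FPKM in A75 and A115 and 37.8 and 33.7 in A91 and A94, with 8.25 to 28.6 in LD livers. Arntl, which encodes BMAL1, was 5.91 and 6.72 in A75 and A115 and 1.06 and 0.723 in A91 and A94, with 0.7004 to 3.95 in LD livers. A75 and A115 thus lay outside the LD range on the opposite side of A91 and A94 for Dbp. The part of clock phase in the Prkca values was not tested. Per2, a repressor of the clock loop, was 8.36 ± 1.80 FPKM in LD and 5.64 ± 1.10 in ADV livers (SD, n = 4, log2 difference −0.56, limma adjusted p = 0.362) and did not pass the test.

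In kidney 0 genes of these lists were called with all mice, and the smallest unadjusted limma p values were 0.0184 for Cry1 and 0.0277 for Per2, with log2 differences of −0.64 and −0.76. Marcks, the classical PKC substrate, was 6.77 ± 1.71 FPKM in LD and 11.4 ± 4.204 in ADV kidneys (log2 difference 0.69, adjusted p = 1). Without A115 the median of all genes was 0.20 higher in ADV kidneys, and 5 of 14 anchors, 4 of 14 maturation factors, 4 of 17 DAG turnover genes and 2 of 20 substrates were called higher and none lower, beside 18.8% of all genes called. Mitochondrial genes took 9.43% to 13.1% of the fragments in these 3 ADV kidneys and 15.7% to 18.0% in the LD kidneys, which did not overlap, and its part in these calls was not tested. Among the genes called higher were Rack1, the scaffold of conventional PKC (0.60), Cavin3 (0.55), and Cdc37 (0.53), which acts in PKC maturation. In the same comparison 3 of 14 other DAG receptors were called higher and 1 lower, 1 of 14 phospholipase C and Gq genes was called in each direction, and of 19 clock genes 1 was called higher and 3 lower, namely Cry1, Per2 and Clock. Under the median ratio, which turned the balance of all genes called without A115 from 2336 higher and 388 lower to 1166 and 1143, the anchors were 1 higher and 0 lower, the maturation factors 3 and 3, DAG turnover 1 and 1, the substrates 1 and 0, the other DAG receptors 2 and 1, phospholipase C and Gq genes 0 and 1, and clock genes 0 and 6. Rack1 (adjusted p = 0.0564) and Cavin3 (adjusted p = 0.0728) were then no longer called, while Cdc37, Cry1, Per2 and Clock were. Without A94 as well, where fewer mice remained, 0 of all 14303 genes tested in kidney were called under the median ratio. With A115 included, Dgke and Dgkh, kinases that remove DAG, differed by 0.40 and −0.61, and neither was called. The other genes with the smallest p of their list were Akap5 (0.43), Pard6g (0.55), Mtor (−0.56), Hsp90ab1 (−0.36), Add2 (0.46), Rasgrp1 (0.47), Unc13d (1.002), Plcd4 (−0.62) and Plcb4 (−0.49), and none of them was called. Without A115, Plcb4 (−0.68, adjusted p = 0.0313) and Unc13d (1.67, adjusted p = 0.0348) were called, Mtor was −0.17, Plcd4 −0.33 and Per2 −0.48. Without A94, Unc13d was 0.47 and Rasgrp1 0.27.

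Between the organs, 10 of 14 phospholipase C and Gq genes were called higher in kidney and 1 lower, where 61.5% of all genes were called higher and 13.1% lower. Under the median ratio these were 8 and 2, where all genes gave 33.6% and 31.6%. The median of the list was 1.70 against 0.74 over all genes. Plcd3 was higher by 2.92 and Plce1 lower by 0.85 on the log2 scale. The lists of anchors (8 higher, 0 lower of 14), maturation factors (11 and 0 of 14) and substrates (14 and 1 of 19) became 6 and 3, 2 and 2, and 6 and 4 under the median ratio. DAG turnover (10 higher and 4 lower of 17), other DAG receptors (8 and 3 of 13) and clock genes (4 and 2 of 19) became 6 and 6, 3 and 4, and 2 and 9. Ezr, a membrane linker of epithelial microvilli and PKC substrate, had the largest difference, 5.89 (147.8 ± 16.8 FPKM in LD kidneys and 1.83 ± 0.242 in LD livers). Dgat2, which stores DAG as triglyceride, was lower in kidney by 2.28 with 45.1 ± 4.32 FPKM in LD kidneys and 216 ± 9.90 in LD livers, and Chn1, a DAG-binding Rac regulator, was higher by 4.87. The other extremes of the lists were Cavin3 (3.57), Mtor (2.38), Dgkg (3.90) and Npas2 (2.07) on the side of kidney and Irs1 (−0.37), Chn2 (−0.95) and Nfil3 (−1.71) on the side of liver.

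The genes most like each isoform were sought by Pearson correlation over the 16 libraries after removal of the 4 group means, among 12319 genes tested in both organs. These are the top values of many and are descriptions that rest on shared libraries, with the mouse A94 in both organs. Prkca was most like Zcwpw1 (r = 0.945, and 0.9497 without A94), Mrpl3 (0.865) and Mphosph9 (0.839). Prkcb was most like Oasl2, Gm12250 and Gimap6 (r = 0.976, 0.9749 and 0.974), interferon-induced and lymphocyte genes. Prkcq was most like Dnajc9, Rsad2 and Satb1 (0.940, 0.938 and 0.931), and without A94 these values were 0.8002, 0.776 and 0.808. Prkch was most like Pde6d, Abcg1 and Rgs19 (0.951, 0.948 and 0.943).

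Prkcz was most like Pex5, Afg3l1 and Mettl7a1 (0.981, 0.979 and 0.979), genes of peroxisomes, mitochondria and lipid droplets, and without A115 these were 0.932, 0.9296 and 0.935. Prkcd was most like Tuba8, Itgb1bp1 and Slc1a5 (0.961, 0.961 and 0.960), Prkce like Zfp503, Ubxn8 and Mxd1 (0.892, 0.873 and 0.852) and Prkci like Myo1e, Hikeshi and Rai14 (0.864, 0.861 and 0.840). Among the isoforms themselves the closest pairs were Prkch with Prkcq (0.843), Prkcd with Prkch (0.807) and Prkcb with Prkcq (0.798). Without A94 these fell to 0.625, 0.646 and 0.557, and Prkcd with Prkcz (0.716) was then the closest pair. Without A115, whose kidney was low for both of these genes, that pair had 0.478 and Prkch with Prkcq 0.9004. Prkca was closest to Prkcq (0.667, and 0.432 without A94) and Prkch (0.529 and 0.199), and had r = 0.464 with Prkcb, which fell to 0.046 without A94.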

How the data were processed

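The authors extracted RNA of liver and kidney, made stranded poly(A) libraries with paired-end reads, trimmed them with Trimmomatic, mapped them to mm10 with STAR 2.5.4b, dropped reads of mapping quality under 10 with SAMtools and summed reads over the exons of UCSC canonical genes by HOMER. The strand setting of the counting was not given in the sources used here. The authors deposited FPKM, although the headers say RPKM, each library divided by its own total. Every value times length and total came out in steps of 0.5 fragment (100% of values, within 0.01). The study's DESeq2 test on counts was not run, and limma-voom on the recovered fragments was the count-based alternative.

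Genes with a mean FPKM times exon kilobases above 0.5 were tested on log2(FPKM + 0.1) with limma 3.58.1 in R 4.3.3 (lmFit, eBayes with trend), each organ apart for ADV against LD and all 16 libraries for differences between organs. P-values were adjusted over all genes tested by Benjamini-Hochberg, with 0.05 as the threshold. Exact permutation tests ran over all 70 assignments. The fits were tested on simulated data. The members, the 7 pathway and 13 marker lists and the alternatives were chosen with earlier results of these data known. Named genes were all members, the 2 of each list with the smallest p in each ADV against LD comparison plus any called, the extremes of each list between organs, and the 3 genes most like each member; Rack1, Cdc37, Clock, Dbp, Arntl and Cidec were named after their values were seen. Some items that this rule names are not reported here.

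The numbers of the mice occur in both organs, so liver and kidney were paired by mouse. The deviations of the 2 organs from their group means correlated by −0.0242 to 0.553 over 12319 genes. Alternatives were a pseudocount of 1, no filter, scaling by the median ratio or without mitochondrial genes, limma-voom on the recovered fragments, each mouse left out, A115 left out under the median ratio, the mouse as a block, and, chosen after seeing the data, A94 left out with or without A115 under the median ratio. Each mouse is 1 replicate within an organ. The main fits between the organs took the 16 libraries as separate and left out the pairing. With the mouse as a block, the smallest limma adjusted p of an isoform between kidney and liver was 9.65e-07, against 1.17e-08 without it. Nothing was mapped again.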

Additional observations from a re-analysis of the deposited data

Results flagged for a closer look

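The gap between the farthest library and its nearest neighbour was compared with the range of each group of 4. For 8 isoforms in 4 groups, 6 of 32 groups passed Dixon's 95% limit. Of these, 4 were from the liver of A94. Chance alone passes about 1 in 20 of independent groups, but the isoforms share libraries, so nothing is concluded from that rate. Prkcb was 2.26 FPKM in the A94 liver against 0.420 to 0.579 in the other ADV livers, Prkcd 7.47 against 2.59 to 3.21, Prkch 2.37 against 0.895 to 1.14, and Prkcq 1.68 against 0.344 to 0.440. The other cases were Prkci in the A115 liver, 4.66 FPKM against 3.52 to 3.62, and Prkcb in the L104 liver, 0.417 against 0.345 to 0.348. The last is a narrow gap at 90 fragments. Of the 7 isoforms tested, none had an ADV effect that differed between the organs at an adjusted p under 0.05.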

How the results depend on the processing

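None of the 7 isoforms tested was called between ADV and LD mice under any alternative, and most of the sign changes below concern values near 0. The count of all genes called in liver, 1, was 6 with no filter on low values, 2 without A94 and A115 under the median ratio, and 0 to 9 with each mouse left out (9 without A91, and 0 without L65, L104 or A75). In kidney the count of 0 became 1 with the mouse as a replicate block, 2309 without A115 under the median ratio, and 0 to 2724 with each mouse left out, the highest without A115. It stayed at 0 without A94 and A115 under the median ratio. For the difference between the organs the count of 0 became 3 with no filter, 1 under the median ratio, 463 without A115 and 228 without A94 and A115, both under the median ratio, and 0 to 415 with each mouse left out. The replicate block changed no call of an isoform, and between the organs 7 of 8 were called with it. The causes of these changes were not tested.

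With 4 mice a group, liver changes of an isoform smaller than its interval could not be called, and Prkcq and Prkcb rest there on as few as 26.5 and 75 fragments. The liver difference of Prkca ranged from 0.66 with a pseudocount of 1 to 1.34 with limma-voom, and its difference between the organs was −0.69 at that pseudocount. In liver, Prkcz was −0.0268 under the median ratio, −0.0549 also without A115, −0.00916 also without A94 and −0.0401 also without both. Prkch and Prkcq were −0.0582 and −0.132 without A94 under the median ratio, and −0.1303 and −0.137 without both. With each mouse left out, Prkch ranged from −0.0301 to 0.408 and Prkcq from −0.108 to 0.561.

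In kidney, without A94 under the median ratio, Prkcd was −0.0162 and Prkci 0.0800, and without A94 and A115 Prkcb was −0.00494 and Prkcq −0.0782. With each mouse left out, Prkcd ranged from −0.0812 to 0.361, Prkci from −0.108 to 0.0380 and Prkcz from −0.547 to 0.00677. Prkca in kidney was −0.28 without A115 and −0.31 without both under the median ratio. For the difference between the ADV effects of the organs, Prkcb was 0.00103 and Prkcq 0.0218 with a pseudocount of 1, and Prkcq was 0.000951 under the median ratio. Under that scaling Prkci was −0.00235 without A115, Prkcb 0.0323 and Prkcq 0.367 without A94, and Prkci −0.0474 and Prkcq 0.0666 without both. With each mouse left out this difference ranged from −0.242 to 0.0583 for Prkcb, from −0.192 to 0.175 for Prkch, from −0.0880 to 0.137 for Prkci and from −0.250 to 0.298 for Prkcq. Between kidney and liver, Prkcb was −0.322 under the median ratio, −0.470 also without A115, −0.278 also without A94 and −0.479 also without both, where it was called lower in kidney (limma adjusted p = 0.0142). Prkce was 0.0675 under the median ratio, 0.119 also without A94, −0.0397 also without A115 and −0.0184 also without both, and was called in none of these.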
